A study of Mus musculus with 22 samples.

Results

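Expression of 10 genes of the NRF2 antioxidant pathway was followed through the day in mouse liver: Nfe2l2, Keap1, Nqo1, Gclc, Gclm, Txnrd1, Srxn1, Osgin1, Ephx1 and Cat. The genes were chosen by symbol from the array annotation, and each of the 10 was measured by 1 of the 22206 features of the array, which carry 19505 named genes in all. The samples were 22 livers, 1 array each, from male mice of 3 to 8 months that lack adiponectin in the whole body (Adiponectin global KO, allele Adipoqtm1Chan, on a C57BL/6J background). The mice lived in groups in a cycle of 12 h light and 12 h dark, with chow always available, and were killed every 4 h. The groups were defined by zeitgeber time (ZT, hours after lights on), and the labels give no age for single mice: ZT2 (4 livers), ZT6 (3), ZT10 (4), ZT14 (4), ZT18 (3) and ZT22 (4). All 22 livers carry the knockout, and the study's wild type was not analysed here, so no comparison below speaks to the role of adiponectin.

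NRF2, the protein product of Nfe2l2, is a transcription factor that pairs with small MAF proteins on antioxidant response elements. KEAP1 holds NRF2 in the cytoplasm and presents it for degradation, and oxidants or electrophiles that modify KEAP1 let NRF2 accumulate, so the protein can change in activity with no change in its own mRNA. Hepatocytes use the pathway to make glutathione, to keep thioredoxin and peroxiredoxins reduced and to detoxify quinones and epoxides. Arrays read mRNA, not protein or activity.

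Promoter sequences near the starts of these genes were searched for letters of the element that NRF2 binds. Bases outside the windows were not searched, so a gene without a match may hold an element elsewhere. RefSeq promoters (GRCm38.p6, 250 bases before to 50 bases after a start) were at hand for 9 of the 10 genes, and Gclc is named only. The letters TGACNNNGC, a core of the antioxidant response element, were searched on both strands and occurred in 4 of the genes' 11 windows, against 12.4% of all 32851 promoters: those of Nfe2l2, Gclm and Srxn1, and 1 of 3 windows of Txnrd1. A looser form, TGANNNNGC, of which the first is a special case, occurred in 7 of the 11 windows and in 41.3% of all promoters. The E-box CACGTG (7.15% of promoters) and the D-box TTATGTAA (0.938%), sites of clock factors, had no match in the 9 genes' windows. The 250 upstream bases are shown for Srxn1 and Osgin1, with matches to the looser form in capitals. Among livers of the same time this pair passed for Pearson's r but not for Spearman's rho (below). A match that lies on the opposite strand reads GCNNNNTCA. The Srxn1 stretch lies at chr2:152105274-152105523 on the plus strand and holds 3 matches of the looser form only; the gene's TGACNNNGC match lies past the start and is not shown. The Osgin1 stretch lies at chr8:119436897-119437146 on the plus strand, before a start inside the gene's RefSeq span, and holds 1 match, also of the looser form only.
Srxn1: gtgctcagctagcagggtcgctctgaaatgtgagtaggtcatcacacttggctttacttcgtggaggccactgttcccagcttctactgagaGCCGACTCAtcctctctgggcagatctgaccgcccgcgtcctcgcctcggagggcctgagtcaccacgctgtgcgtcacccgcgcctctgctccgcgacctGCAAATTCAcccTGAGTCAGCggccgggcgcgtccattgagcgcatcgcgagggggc
Osgin1: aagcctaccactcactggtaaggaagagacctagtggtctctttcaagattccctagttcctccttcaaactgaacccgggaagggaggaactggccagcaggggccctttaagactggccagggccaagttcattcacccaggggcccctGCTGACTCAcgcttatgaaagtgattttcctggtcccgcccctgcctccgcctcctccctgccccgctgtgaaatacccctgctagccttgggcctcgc
These letters describe the windows only and show no binding.

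Values were read as log2 expression, so a difference of 1 is a doubling; the base is not stated by the submitters. Correlations between arrays ran from 0.976 to 0.994 over all features, and no array was identical to another. None of the 10 genes lay below an array's lower quartile of all features (3.67 to 3.91) on any array. Adipoq, the deleted gene, was listed at or below 4.69 (median 3.62), but liver is not where it is normally made, so this level does not check the genotype. The hepatocyte markers Alb, Apoa1 and Ttr were at 19.44 to 19.87, close to the 19.87 that is the highest value of the data set. In 5 arrays (ZT6b, ZT6c, ZT14b, ZT14d and ZT22a; letters tell the livers of a time apart) the secreted trefoil peptide gene Tff3 was at 10.35 to 13.63, while the other 17 were at or below 4.73, and the results that rest on them are given with and without these 5. Without them ZT6 holds 1 liver, which is assumed to vary like the others. The labels do not say more about what made the livers of a time separate samples than their letters, so the p-values stand for the spread among these livers, which may be in part technical.

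A daily rhythm was tested first, by fitting a 24 h cosine and sine in limma (moderated F test) to all 22206 features with Benjamini-Hochberg adjustment; a gene is called where the adjusted p is under 0.05. Osgin1 and Gclc were called, with fitted peaks at ZT3.01 ± 0.65 h (SE) and ZT1.03 ± 0.81 h (SE). That is 2 of the 10 genes, against 7.62% of all features. The unadjusted p was under 0.05 for 4 of the 10, against 21.1% of all features. The median fitted amplitude (the distance from the mean to the peak) was 0.19 for the 10 genes and 0.16 for all features. No value of the list as a whole was tested.

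**Figure D1:**
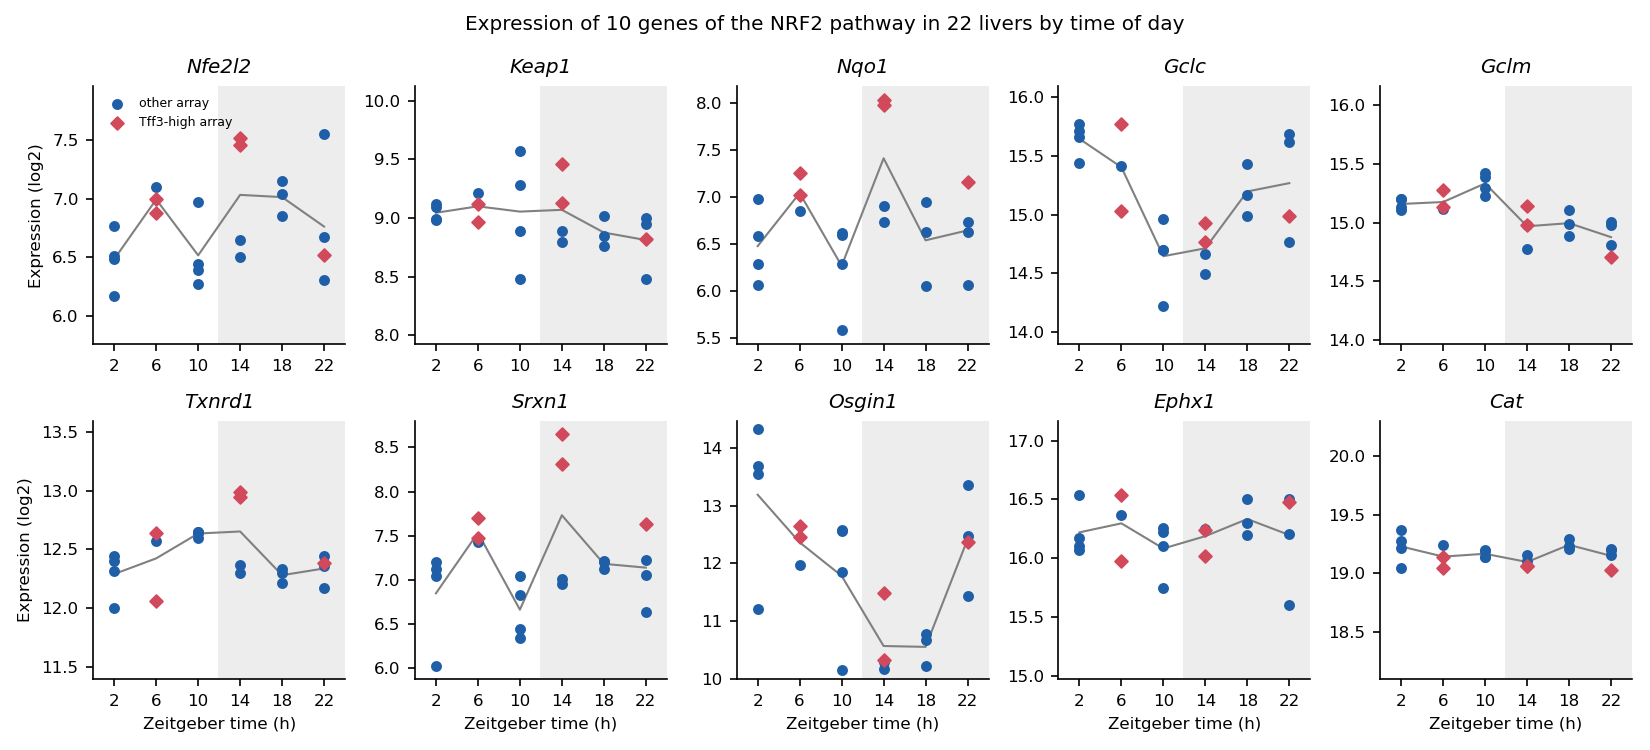
Log2 expression (y axis) of the 10 genes against zeitgeber time in hours (x axis), 1 point per liver, with the line through the time means and the dark phase shaded; diamonds are the 5 arrays with high Tff3 and every panel spans at least 2.2 log2 units. Osgin1 runs from a mean of 13.20 at ZT2 to 10.55 at ZT18, Gclc from 15.65 at ZT2 to 14.65 at ZT10, and Cat lies between 19.03 and 19.37 throughout.

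Nfe2l2 itself was not called in any of the tests of time. It ranged from 6.17 in ZT2d to 7.55 in ZT22d, and its time means ran from 6.49 ± 0.25 (SD, n = 4) at ZT2 to 7.03 ± 0.53 (SD, n = 4) at ZT14, and neighbouring times in that order overlapped. The fitted amplitude was 0.19 ± 0.12 (SE) with an adjusted p of 0.593 (limma), and 0.20 (adjusted p = 0.610) without the 5 arrays with high Tff3. At ZT2 the livers read 6.77, 6.51, 6.49 and 6.17, and at ZT14 they read 6.50, 7.52, 6.65 and 7.46, so the ZT14 livers fell into a lower and a higher pair. The higher pair were ZT14b and ZT14d, both with high Tff3. ZT22d, the highest liver, did not have high Tff3. ZT2 minus ZT14 was -0.55 ± 0.25 (SE, limma adjusted p = 0.281), and -0.09 (adjusted p = 0.943) without the 5 arrays.

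Keap1, the adaptor that targets NRF2 for degradation, had time means between 8.81 ± 0.23 (SD, n = 4) at ZT22 and 9.10 ± 0.12 (SD, n = 3) at ZT6. Every neighbouring pair of times in that order overlapped. Its 24 h amplitude was 0.13 ± 0.08 (SE, limma adjusted p = 0.582), and 0.17 (adjusted p = 0.591) without the 5 arrays with high Tff3. Light minus dark (the 3 times of the light phase, averaged, against the 3 of the dark phase) was 0.15 with a 95% interval of -0.10 to 0.40. The spread among livers was widest at ZT10, where ZT10c read 8.48 and ZT10b 9.57.

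Gclc and Gclm encode the catalytic and the modifier subunit of glutamate-cysteine ligase, which performs the first and rate-limiting step of glutathione synthesis. Gclc read 15.44, 15.71, 15.66 and 15.77 at ZT2 and 15.41, 15.03 and 15.77 at ZT6. It was lower at ZT10 (14.96, 14.70, 14.22 and 14.70) and at ZT14 (14.66, 14.93, 14.49 and 14.77). Values of 15.43, 15.17 and 14.99 followed at ZT18, and 14.99, 14.77, 15.62 and 15.69 at ZT22. All 4 livers of ZT2 lay above all 8 of ZT10 and ZT14. In order of the means, ZT10 and ZT14 overlapped, ZT14 and ZT18 did not, and ZT18, ZT22, ZT6 and ZT2 each overlapped the next.

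The 24 h amplitude of Gclc was 0.47 ± 0.09 (SE), a 1.91-fold span from trough to peak, with a fitted peak at ZT1.03 ± 0.81 h (SE) and an adjusted p of 0.00407 (limma). Without the 5 arrays with high Tff3 it was 0.53 ± 0.10 (SE), 2.07-fold, with a peak at ZT0.57 and an adjusted p of 0.00335. Leaving out single arrays gave amplitudes of 0.43 to 0.51 and adjusted p-values from 7.65e-04 to 0.0111. The call was lost where values were replaced by normal scores of their ranks (adjusted p = 0.054). The profile also differed among the 6 times with no shape assumed (limma F test, adjusted p = 0.0153).

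Gclm varied less. Time means ran from 14.88 ± 0.14 (SD, n = 4) at ZT22 to 15.34 ± 0.09 (SD, n = 4) at ZT10. The livers of ZT10 read 15.39, 15.30, 15.42 and 15.23 and those of ZT22 read 14.71, 14.81, 15.01 and 14.98, with no overlap. Its amplitude was 0.20 ± 0.06 (SE), 1.32-fold, with a fitted peak at ZT7.52 ± 1.14 h (SE) and an adjusted p of 0.113 (limma). The call depended on the processing: quantile normalization gave an adjusted p of 0.0277, and fitting only features above the median level gave 0.0433. Light minus dark was 0.28 ± 0.09 (SE, limma adjusted p = 0.0600), and it was called under 4 of 8 alternative settings. Its amplitude was 0.20 without the 5 arrays with high Tff3 (adjusted p = 0.264), and light minus dark was then 0.27 (adjusted p = 0.215). Within times the Gclc and Gclm levels had an r of 0.292 over the 22 livers (permutation p = 0.288, adjusted p = 0.455 over 45 pairs of genes).

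**Figure D2:**
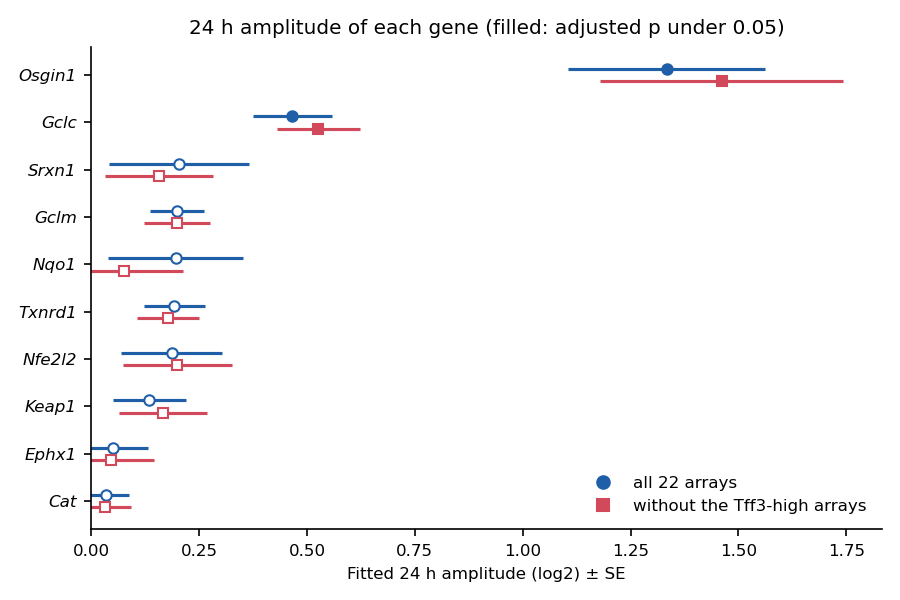
Fitted 24 h amplitude in log2 units (x axis) with its SE for each of the 10 genes (y axis), from all 22 arrays (circles) and without the 5 arrays with high Tff3 (squares); filled symbols have an adjusted p under 0.05. Osgin1 at 1.33 and Gclc at 0.47 are the filled genes, and the other 8 lie at or below 0.20 over all arrays.

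Osgin1, a stress-induced growth inhibitor gene known as a target of NRF2, had the widest daily swing of the 10. At ZT2 the livers read 14.33, 13.69, 13.56 and 11.20, and at ZT6 they read 11.98, 12.46 and 12.66. ZT10 gave 12.59, 11.85, 10.14 and 12.56. At ZT14 the values were 10.28, 11.49, 10.17 and 10.32, and at ZT18 they were 10.21, 10.67 and 10.77. ZT22 gave 12.38, 11.44, 13.37 and 12.48. The 3 livers of ZT6 lay above all 7 livers of ZT14 and ZT18, whereas ZT2d at 11.20 lay below ZT14b at 11.49 and ZT10c at 10.14 lay below every liver of ZT14. In order of the means (ZT18, ZT14, ZT10, ZT6, ZT22, ZT2) each time overlapped the next.

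The amplitude of Osgin1 was 1.33 ± 0.23 (SE), a 6.35-fold span, with a fitted peak at ZT3.01 ± 0.65 h (SE) and an adjusted p of 9.06e-04 (limma). Without the 5 arrays with high Tff3 the span was 7.58-fold (amplitude 1.46 ± 0.28 SE, peak at ZT3.14, adjusted p = 0.00519). Single omissions gave amplitudes of 1.21 to 1.53 and adjusted p-values of 5.49e-05 to 0.00346, and normal scores of ranks gave an adjusted p of 0.0712. The 6 times differed with no shape assumed (limma F test, adjusted p = 0.00939). That test called 2 of the 10 genes, Osgin1 and Gclc, against 6.14% of all features. Its unadjusted p was under 0.05 for 5 of the 10, against 19.8% of all features. In that test the Osgin1 call was lost under a trended and robust variance prior (adjusted p = 0.0590) and on ranks (0.241), and the Gclc call on ranks (0.194).

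Light minus dark called 1 of the 10 genes, against 5.27% of all features. The unadjusted limma p was under 0.05 for 2 of the 10, against 19.1% of all features. Osgin1 was higher in the light by 1.27 ± 0.33 (SE, limma adjusted p = 0.0214). This call was lost without the 5 arrays with high Tff3, where the difference was 1.25 and the adjusted p 0.131, under a trended and robust variance prior (0.0641) and on ranks (0.216). ZT2 minus ZT14 called 2 of the 10 genes, against 4.27% of all features, both higher at ZT2. The unadjusted limma p was under 0.05 for 5 of the 10, against 15.6% of all features. Among those 5, Nfe2l2, Nqo1 and Srxn1 were lower at ZT2 (-0.55, -0.94 and -0.88). Without the 5 arrays with high Tff3 these 3 differences were -0.09, -0.34 and -0.14. Osgin1 differed by 2.63 ± 0.54 (SE, limma adjusted p = 0.00376) and Gclc by 0.93 ± 0.21 (SE, limma adjusted p = 0.00998). Both were called without the 5 arrays too, at 2.97 (adjusted p = 0.0229) and 1.07 (adjusted p = 0.0271), but neither on ranks (adjusted p = 0.118 and 0.110).

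The other opposed times called none of the 10 genes in limma. ZT6 minus ZT18 called 1.13% of all features, and 1 of the 10 had an unadjusted p under 0.05 (13.5% of all features did), Osgin1 at 1.82 ± 0.62 (SE, adjusted p = 0.159). ZT10 minus ZT22 called 3.3% of all features, and 2 of the 10 had an unadjusted p under 0.05 (14.8% of all features did), Gclc at -0.62 ± 0.21 (SE, adjusted p = 0.125) and Gclm at 0.46 ± 0.14 (SE, adjusted p = 0.0759). The Gclc difference passed the threshold without ZT22b (adjusted p = 0.0494) and with array weights (0.0470), and the Gclm difference passed under quantile normalization (0.0140), with features above the median level (0.0231) and under a trended and robust prior (0.0248). A 12 h component added to the 24 h terms was called for 0.018% of all features and for none of the 10 genes, of which 0 had an unadjusted p under 0.05, against 7.56% of all features (limma).

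Nqo1 and Srxn1 were highest at ZT14, where the livers disagreed. Nqo1 encodes a quinone reductase and Srxn1 encodes sulfiredoxin, which restores overoxidised peroxiredoxins. At ZT14 Nqo1 read 6.90, 7.98, 6.73 and 8.03, and at ZT2 it read 6.06, 6.28, 6.58 and 6.98. ZT2 minus ZT14 was -0.94 ± 0.30 (SE, limma adjusted p = 0.0884), and -0.34 (adjusted p = 0.731) without the 5 arrays. Srxn1 read 7.01, 8.65, 6.96 and 8.31 at ZT14 and 7.05, 7.12, 7.20 and 6.03 at ZT2. ZT2 minus ZT14 was -0.88 ± 0.32 (SE, limma adjusted p = 0.134), and -0.14 (adjusted p = 0.911) without the 5 arrays. In both genes the upper pair of ZT14 were ZT14b and ZT14d, whose Tff3 was high. Leaving out ZT14a or ZT14c, the lower pair, took both genes past the threshold (ZT2 minus ZT14 adjusted p down to 0.0320 for Nqo1 and 0.0411 for Srxn1). Array weights also called Nqo1 (-1.14, adjusted p = 0.0265).

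The 24 h amplitude was 0.20 for each of the pair, with SEs of 0.16 and adjusted p-values of 0.726 for Nqo1 and 0.724 for Srxn1 (limma). Without ZT14d the Nqo1 amplitude was 0.08, without ZT14b 0.09, and without all 5 arrays with high Tff3 0.08. The Srxn1 amplitude was 0.09 without ZT14b, 0.12 without ZT14d or ZT2d, and 0.16 without the 5. No single omission or alternative setting took either past the threshold of the 24 h test. Among the 5 arrays with high Tff3, Nqo1 was above every array of its time without high Tff3 in 5 of 5. It lay over their mean by a median of 0.69 (lowest 0.17). Srxn1 was above in 5 of 5, by a median of 0.65 (lowest 0.04). Osgin1 was above in 4 of 5 and Cat was below in 5 of 5. Nfe2l2 was above in 2 and below in 2. The arrays without high Tff3 were 1 at ZT6, 2 at ZT14 and 3 at ZT22, so lying above or below all of them is easily met. The share of all features that did so was not counted. The 5 arrays were picked by a measured value, so these counts carry no test.

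Txnrd1, the cytosolic thioredoxin reductase gene, was at 12.60 to 12.65 in all 4 livers of ZT10 and at 12.21 to 12.33 in the 3 of ZT18. At ZT14 it read 12.37, 12.99, 12.30 and 12.95. The amplitude was 0.19 ± 0.07 (SE), with a fitted peak at ZT11.4 and an adjusted p of 0.208 (limma). It was 0.18 without the 5 arrays, with a fitted peak at ZT9.02 and an adjusted p of 0.292. ZT14b and ZT14d were again the upper pair, while ZT6b, also with high Tff3, was the lower end of ZT6 at 12.06.

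Ephx1, the microsomal epoxide hydrolase gene, and Cat, the gene of the peroxisomal enzyme that splits hydrogen peroxide, had the smallest fitted amplitudes. Ephx1 means lay between 16.08 ± 0.23 (SD, n = 4) at ZT10 and 16.33 ± 0.15 (SD, n = 3) at ZT18. Its amplitude was 0.05 ± 0.08 (SE, limma adjusted p = 0.923), and light minus dark had a 95% interval of -0.28 to 0.21. Cat ranged from 19.03 in ZT22a to 19.37 in ZT2b. Its amplitude was 0.03 ± 0.05 (SE, limma adjusted p = 0.926), and light minus dark had a 95% interval of -0.15 to 0.18. The amplitudes were 0.05 for Ephx1 and 0.03 for Cat without the 5 arrays. Cat lay near the upper end of the scale. The fitted peak hours of these low amplitudes cannot be read.

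Markers of other liver cells were read beside these rhythms. Summed levels of 6 markers of sinusoidal endothelium (log2 of the sum) were 12.46 to 12.79 at ZT2, 12.20 to 12.62 at ZT6, 12.23 to 12.66 at ZT10, 12.03 to 12.16 at ZT14, 12.49 to 12.89 at ZT18 and 12.81 to 13.10 at ZT22. They were lowest at ZT14, a time at which Gclc and Osgin1 were also low, and reached their highest values at ZT22. The mean of Gclc was lowest at ZT10 and that of Osgin1 at ZT18, and both were highest at ZT2. Of the 6 markers 1, Stab2, was called for a 24 h rhythm. Beside this count and those of the lists below stand 7.62% of all features. Kupffer cell markers summed to 10.64 to 11.22 at ZT2, 10.33 to 10.72 at ZT6, 10.39 to 11.43 at ZT10, 10.05 to 10.99 at ZT14, 10.18 to 10.44 at ZT18 and 10.08 to 10.73 at ZT22, with 1 of 7 called, Cd5l. Hepatocyte markers summed to 21.81 to 22.07 over all livers, with 1 of 7 called, Tat. Of neutrophil markers 1 of 3 was called, S100a9. No marker of stellate cells (6 measured), cholangiocytes (5), lymphocytes (5), acinar cells (3), adipocytes (3) or erythroid cells (1) was called. Cftr and Cela1 lay below the lower quartile on 18 of 22 arrays, S100a8 on 15, Cd79b on 12 and Krt19 on 8. The adipocyte genes Adipoq, Plin1 and Lep did so on 14, 16 and 20. Others of the same lists did so on 0 arrays. They include Krt7 and Sox9 of cholangiocytes, Cpa1 and Prss2 of acinar cells, S100a9 and Csf3r of neutrophils and Ptprc of lymphocytes. The part of other cells in the results was not tested. In whole liver, fewer cells of a type and less RNA per cell cannot be told apart.

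Partners and regulators of NRF2 were taken as a list of 17 genes, of which 2 were called for a 24 h rhythm by limma (7.62% of all features were). Bach2, whose product is a repressor that competes for the same DNA elements, peaked at ZT2.36 ± 0.85 h (SE) with a 2.32-fold span (adjusted p = 0.00983). Its means were 7.70 at ZT2, 7.81 at ZT6 and 6.46 at ZT14. Sqstm1, the gene of p62, a cargo receptor of autophagy that binds KEAP1, peaked at ZT3.39 ± 0.94 h (SE) with a 1.60-fold span (adjusted p = 0.0310). The Sqstm1 call was lost in 8 of the 22 single omissions, those of ZT2b, ZT2d, ZT6b, ZT6c, ZT14a, ZT14c, ZT18b and ZT18c, with adjusted p up to 0.0758. The Sqstm1 amplitude was 0.34 over all arrays and 0.40 without the 5 arrays with high Tff3. That of Bach2 was 0.61 and 0.46. In light minus dark 2 of the 17 were called, against 5.27% of all features: Bach1, another repressor of the same elements (0.57, adjusted p = 0.0239), and Prkcd, a protein kinase C gene (0.37, adjusted p = 0.0321), both higher in the light and named after their values were seen. The differences were 0.65 and 0.44 without the 5 arrays with high Tff3, and neither was called (adjusted p = 0.0933 and 0.0754). Bach1 also lost its call without ZT18c, and Prkcd in 9 single omissions.

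Of 34 further known targets of NRF2, 30 were measured and 6 were called for a 24 h rhythm, against 7.62% of all features. The 4 of lowest adjusted p were Gstm4, Abcc2, Gss and Gstm6. Gstm4, a glutathione S-transferase gene, peaked at ZT3.14 ± 0.60 h (SE) with a 2.24-fold span (limma adjusted p = 3.62e-04), from a mean of 13.58 at ZT6 to 12.51 at ZT14. Abcc2, the canalicular export pump of glutathione conjugates, peaked at ZT8.05 ± 0.75 h (SE) with a 1.63-fold span (adjusted p = 0.00634). Gss, glutathione synthetase, which performs the step after glutamate-cysteine ligase, peaked at ZT11.0 ± 0.86 h (SE) with a 2.01-fold span (amplitude 0.50, adjusted p = 0.00712), and without the 5 arrays its amplitude was 0.45 (adjusted p = 0.0543). Gstm6 peaked at ZT23.4 with a 1.70-fold span (adjusted p = 0.0222), and lost its call without ZT10b or ZT22d. Near-identical copies in the Gstm family could share signal on an array, so these values are uncertain. The other 2 called, outside the rule of 4, were Ugdh (peak ZT10.2, adjusted p = 0.0292), lost without ZT10c, ZT22b or ZT22d, and the heme oxygenase gene Hmox1 (peak ZT10.2, adjusted p = 0.0462), lost in 19 of 22 single omissions. Without the 5 arrays 5 of the 30 were called, against 5.88% of all features: Hmox1 and Gss were lost and Gstm3 was gained. In light minus dark 2 of the 30 were called, close to the 5.27% of all features: Gstm4 (0.55, adjusted p = 0.0120) and Abcc2 (0.44, adjusted p = 0.00526), both higher in the light. The Gstm4 difference was again 0.55 without the 5 arrays, with an adjusted p of 0.0686.

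Of 31 other antioxidant genes, 28 were measured and 4 were called for a 24 h rhythm, against 7.62% of all features. Glrx5, a mitochondrial glutaredoxin of iron-sulfur cluster assembly, peaked at ZT15.8 ± 0.56 h (SE) with a 1.92-fold span (limma adjusted p = 2.01e-04). Glrx, the cytosolic glutaredoxin, peaked at ZT16.3 ± 0.70 h (SE) with a 2.11-fold span (adjusted p = 0.00340), with means of 11.09 at ZT2 and 12.18 at ZT18. Prdx2, a cytosolic peroxiredoxin, peaked at ZT18.8 ± 0.74 h (SE) with a 1.73-fold span (amplitude 0.39, adjusted p = 0.00759), and without the 5 arrays its amplitude was 0.33 (adjusted p = 0.0726). Txnip, an inhibitor of thioredoxin, peaked at ZT5.59 ± 0.85 h (SE) with a 2.73-fold span (adjusted p = 0.0249), and lost its call without ZT6b (adjusted p = 0.0742). In light minus dark the same 4 were called, against 5.27% of all features: Glrx5 (-0.50), Glrx (-0.61) and Prdx2 (-0.54) were lower in the light, and Txnip was higher by 0.99. Without the 5 arrays the light minus dark calls of Glrx (-0.58, adjusted p = 0.0751) and Prdx2 (-0.39, adjusted p = 0.102) were lost.

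**Figure D3:**
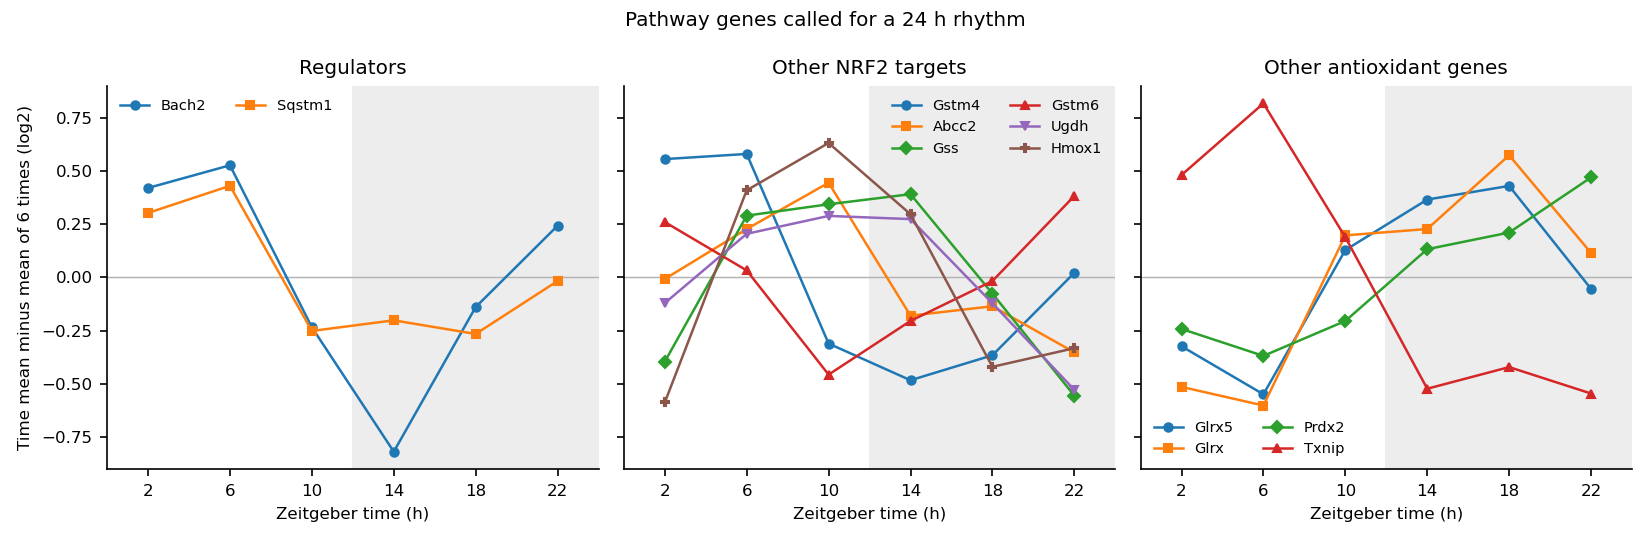
Time means minus the mean of the 6 times in log2 units (y axis) against zeitgeber time in hours (x axis) for the 12 listed genes called for a 24 h rhythm, in 3 panels for 2 regulators, 6 other targets and 4 other antioxidant genes; the dark phase is shaded. Bach2 and Gstm4 are lowest at ZT14, whereas Glrx5 and Glrx are highest at ZT18.

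Genes with the profile most like Gclc over the 22 livers were Thra, a thyroid hormone receptor gene (Pearson r 0.861), Evi5 (0.861) and Eps8l2 (0.832). For Osgin1 they were Slc25a30 (Pearson r 0.819), Gabpb1 (0.802) and Atxn7l1 (0.783). Spearman's rho of these 6 ran from 0.708 to 0.898. The 6 were the highest by Pearson r among named genes outside the 10, predicted genes (Gm or Rik names) left out; the values share the arrays and the daily profile, and they are descriptions with no test.

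Livers of the same time were then compared with each other, by correlating deviations from the time means for the 45 pairs of the 10 genes (two-sided permutation within times, Benjamini-Hochberg over the 45). The median r was 0.37. The pairs that passed for Pearson's r were 3 of the 45, all positive, among Txnrd1, Srxn1, Keap1 and Osgin1. Txnrd1 and Srxn1 had r = 0.801 (permutation p = 0.00314, adjusted p = 0.0488) and rho = 0.709 (permutation p = 0.00552, adjusted p = 0.0828). Srxn1 and Osgin1 had r = 0.647 (permutation p = 0.00325, adjusted p = 0.0488) and rho = 0.686 (permutation p = 0.00287, adjusted p = 0.0646). Keap1 and Txnrd1 had r = 0.496 (permutation p = 0.00196, adjusted p = 0.0488) and rho = 0.599 (permutation p = 0.00139, adjusted p = 0.0626). No pair passed for rho. Without the 2 livers farthest from the median of the first gene, r was 0.844, 0.490 and 0.699 in that order.

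These relations touch the arrays with high Tff3, whose part was not tested beyond leaving them out. Over the 16 livers left in times with more than 1, Txnrd1 and Srxn1 had r = 0.810 (permutation adjusted p = 0.205). Srxn1 and Osgin1 had r = 0.848 (permutation adjusted p = 0.0899) and Keap1 and Txnrd1 r = 0.327 (permutation adjusted p = 0.177). Without the 2 of these livers farthest from the median of the first gene, r was 0.445, 0.682 and 0.547 in that order. There Gclc passed with Nqo1 (r = 0.837, permutation adjusted p = 0.0158) and with Ephx1 (r = 0.884, permutation adjusted p = 0.0313), also by rho (permutation adjusted p = 0.0162 for each). Over all 22 livers those were r = 0.580 (permutation adjusted p = 0.0631) and r = 0.659 (permutation adjusted p = 0.114). Nfe2l2 passed with no other gene of the 10, with r from 0.112 with Cat to 0.574 with Keap1 (lowest permutation adjusted p = 0.114). All pairs share an array and its scaling.

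**Figure D4:**
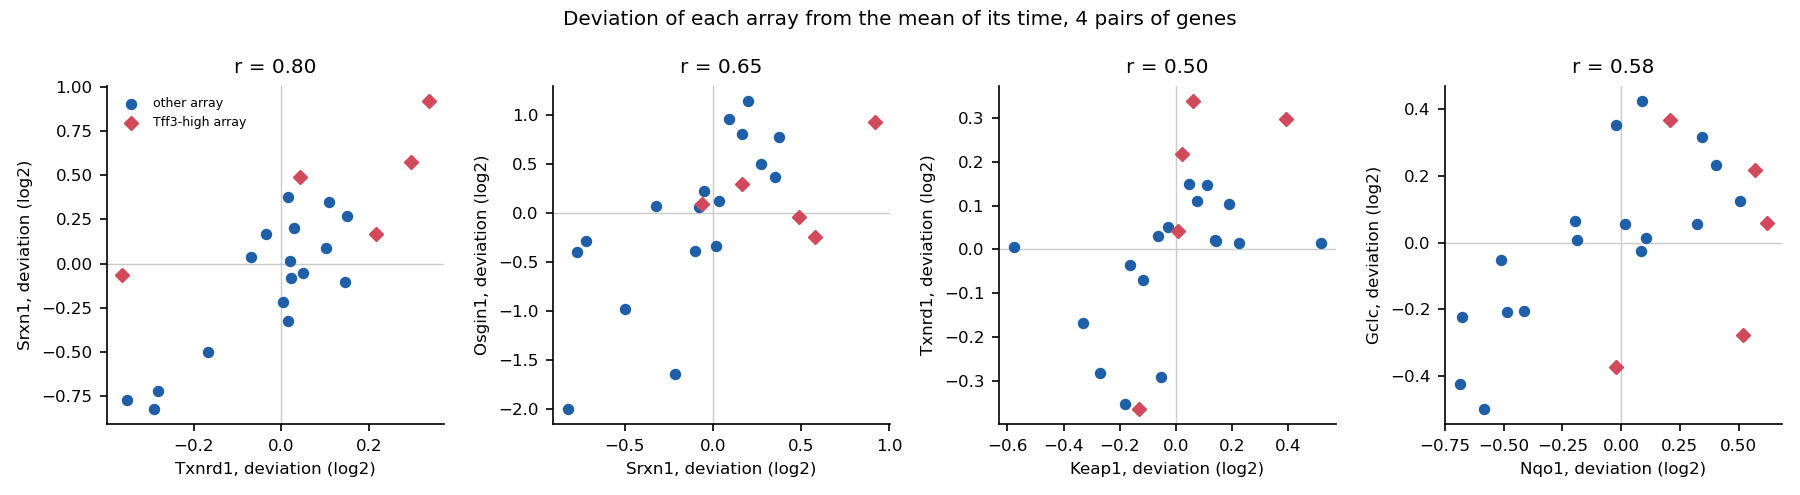
Deviation of each liver from the mean of its time in log2 units for 4 pairs of genes, 1 point per liver, with diamonds for the 5 arrays with high Tff3. The panels show Txnrd1 and Srxn1 (r = 0.80), Srxn1 and Osgin1 (r = 0.65), Keap1 and Txnrd1 (r = 0.50) and Nqo1 and Gclc (r = 0.58), and the diamonds of ZT14 lie at the upper right of the first panel.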

How the data were processed

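Total RNA of each liver was hybridised to a Clariom S array from 100 ng, per the labels' protocols. The deposited values were read as log2 expression from their range, with 1 feature per gene here; how the authors normalized them, with which software and build, is not given in the sources used here. Probes were named through the platform annotation (19572 of 22206 features have a symbol).

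All 22206 features were fitted in limma 3.58.1 (R 4.3.3) over all 22 arrays, with no filter, by lmFit and eBayes, and p-values were adjusted by Benjamini-Hochberg at 0.05. Designs were a 24 h cosine and sine, 6 time means with their contrasts, and a 12 h component. The code was tested on simulated data. An array counted as high in Tff3 above 8. Within-time relations used 100000 permutations. The genes named were the 10, up to 4 per list by adjusted p in the 24 h test, and 3 most alike genes per called gene. The 10 genes and all lists were chosen with earlier results of these data known. Alternatives tried were other scaling, a level filter, other priors and weights, a letter block, omissions and ranks. The number of arrays limits the precision.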

Additional observations from a re-analysis of the deposited data

Results flagged for a closer look

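Of 40 groups of 4 livers (the 10 genes at ZT2, ZT10, ZT14 and ZT22), 3 held a liver set apart from the other livers of its time by more than Dixon's 95% limit; chance alone sets apart about 1 in 20 such groups. Srxn1 read 6.03 in ZT2d, below 7.05 to 7.20 in the others of ZT2. Osgin1 read 11.49 in ZT14b, above 10.17 to 10.32 in the others of ZT14. Ephx1 read 16.02 in ZT14b, below 16.24 to 16.25 in the others of ZT14. ZT14b is 1 of the 5 arrays with high Tff3 and ZT2d is not. The lowest correlation between arrays, 0.976, was that of ZT2d with ZT14b. ZT2d read lowest of the 22 livers for Nfe2l2, Txnrd1 and Srxn1, and highest, tied with ZT6c, for Gclc and Ephx1. ZT10c read lowest for Nqo1, Gclc and Osgin1, lowest with ZT22b for Keap1, and highest for Gclm. What sets these arrays apart was not tested.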

How the results depend on the processing

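The 24 h calls of Osgin1 and Gclc held under every alternative run except normal scores of ranks, and no result changed sign with a call. The letters did not pair the livers (median r of same-letter deviations 0.0028, and 3 of 51 pairs over 0.1), and the replicate block called 2 of the 10 genes for a 24 h rhythm, as without it, and 1 feature for the 12 h component. Quantile normalization called 2 genes in light minus dark and 1 in ZT10 minus ZT22, where the main setting called 1 and 0 of the 10. Shares of all features under each alternative are not given beside the gene counts here, so these counts are no result about the list. Fitting only features above the median level, a smaller set, gave 2 genes in light minus dark and 1 in ZT10 minus ZT22. It called 417 features of that smaller set in ZT6 minus ZT18. A trended, robust prior gave 1 gene for any difference among times, 1 in ZT10 minus ZT22 and 10 features for the 12 h component; array weights gave 1 gene in ZT10 minus ZT22 and 15 features for the 12 h component. Without the 5 arrays with high Tff3, light minus dark called 0 genes and 617 features, ZT2 minus ZT14 514, ZT6 minus ZT18 59 and the 12 h component 10 features. Ranks called 0 genes and 605 features for the 24 h rhythm (1691 with the values), 0 genes and 0 features for any difference, 226 features in light minus dark, 0 genes and 82 features in ZT2 minus ZT14, and 0 features in ZT6 minus ZT18, in ZT10 minus ZT22 and for the 12 h component. A threshold of 0.01 left 830 features with a 24 h rhythm. Leaving out single arrays gave 2 to 4 genes and 589 to 1018 features in ZT2 minus ZT14, 82 to 440 features in ZT6 minus ZT18, 0 to 1 gene in ZT10 minus ZT22, and 2 to 16 features for the 12 h component. The causes were not tested.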
